A study of Homo sapiens with 8 samples.

Results

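Amino acids cross the plasma membrane and the membranes of lysosomes and mitochondria on solute carriers. The 37 genes described here belong to the SLC1, SLC3, SLC6, SLC7, SLC16, SLC25, SLC36, SLC38, SLC43 and SLC66 families, and most encode such carriers. Among the exceptions, SLC3A1 and SLC3A2 encode heavy chains of carriers, SLC6A8 carries creatine and SLC43A3 is known for carrying nucleobases. They were listed by name and then filtered on abundance in HepG2, a human cell line derived from a hepatocellular carcinoma that is widely used as a model of the hepatocyte. A member was tested where it had 10 or more counts in 2 or more of the 8 libraries, which 34 of the 37 members and 13943 of the 38032 gene identifiers did. The genotype is labelled wild type throughout, and no drug treatment is labelled. 2D-primed cells (4 libraries) grew for 8 days on flat culture-ware, while 3D-primed cells (4 libraries) grew for the same time on Alvetex Strata, a porous and inert polystyrene scaffold. Per the labels, both were fed minimal essential medium with non-essential amino acids, glutamine and serum, and were released from the substrate with trypsin before lysis. Per the methods, the larger scaffold inserts received more cells per well than the flat cultures. The smaller inserts received the same number in a smaller well format, and seeding on the scaffold is described as dense. Which insert was used for these libraries is not stated there. A schedule of medium changes is described for the scaffold, so that seeding, feeding and substrate cannot be told apart here.

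Carriers differ in what drives them. Some couple uptake to the sodium gradient and concentrate their substrate in the cell (the SLC1 glutamate carriers, SLC6 and several SLC38 members). Others are exchangers that let an amino acid in as another leaves, among them SLC1A4. Most exchangers of the SLC7 family are light chains that reach the plasma membrane only when bound to a heavy chain, SLC3A2 (CD98hc) or SLC3A1 (rBAT). Lysosomal carriers release amino acids from degraded protein, and SLC38A9 also serves as an arginine sensor of mTORC1, the kinase complex that couples growth to nutrient supply. In the liver, system N and system A carriers move glutamine and alanine, the main nitrogen carriers between organs.

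Counts are given as CPM, a rate per library size after TMM scaling, as mean ± SD of 4 libraries, and fold changes are on the log2 scale as 3D-primed over 2D-primed. A gene was called where the adjusted p of edgeR's quasi-likelihood test, taken over all genes tested, was below 0.05. The labels number the replicates without naming separate cultures, so p measures only the spread between these libraries, which held 21599630 to 27844077 counts. All 15 hepatocyte markers checked passed the filter, and their summed level was 73671 to 80105 CPM in 2D-primed libraries and 106787 to 119038 CPM in 3D-primed libraries. Of the markers of other cell types, 3 of 9 mesenchymal, 3 of 5 endothelial and 3 of 6 leukocyte genes passed, with sums of 40.6 to 48.8, 4.16 to 7.76 and 34.2 to 78.3 CPM over the 8 libraries. The pan-leukocyte marker PTPRC and the fibroblast marker DCN had at most 2 counts in any library, and the fibroblast marker THY1 and the T cell marker CD3E had 0 in all 8. CD68, which leukocytes share with other lysosome-rich cells, made up most of the leukocyte sum and ran from 71.8 to 74.4 CPM in 2D-primed libraries and from 29.8 to 39.3 CPM in 3D-primed libraries. The part of these marker and hepatocyte levels in the transporter results was not tested. In bulk RNA, fewer cells of a kind and less RNA per cell cannot be told apart.

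Of the 34 transporters tested, 19 were called higher in 3D-primed cells (55.9%) and 6 lower (17.6%), where 32.4% and 31.6% of all genes tested were called in these directions. The median log2 fold change of the 34 was 0.26, against 0.01 over all genes tested. A change of 1.5-fold or more was called in 9 transporters higher and 3 lower, beside 11.8% and 13.7% of all genes. With 10 counts required in all 8 libraries the 3 became 1, SLC6A8, as SLC7A7 and SLC43A3 were then not tested. All 25 called members had groups that did not overlap, with every 3D-primed library above every 2D-primed library for 19 (30.2% of all genes) and below for 6 (29.5%). The remaining 9 had overlapping groups. The directions were mixed within 4 of the 7 transport classes, and the classes for cystine and for the lysosome had members called higher and none called lower.

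**Figure D1:**
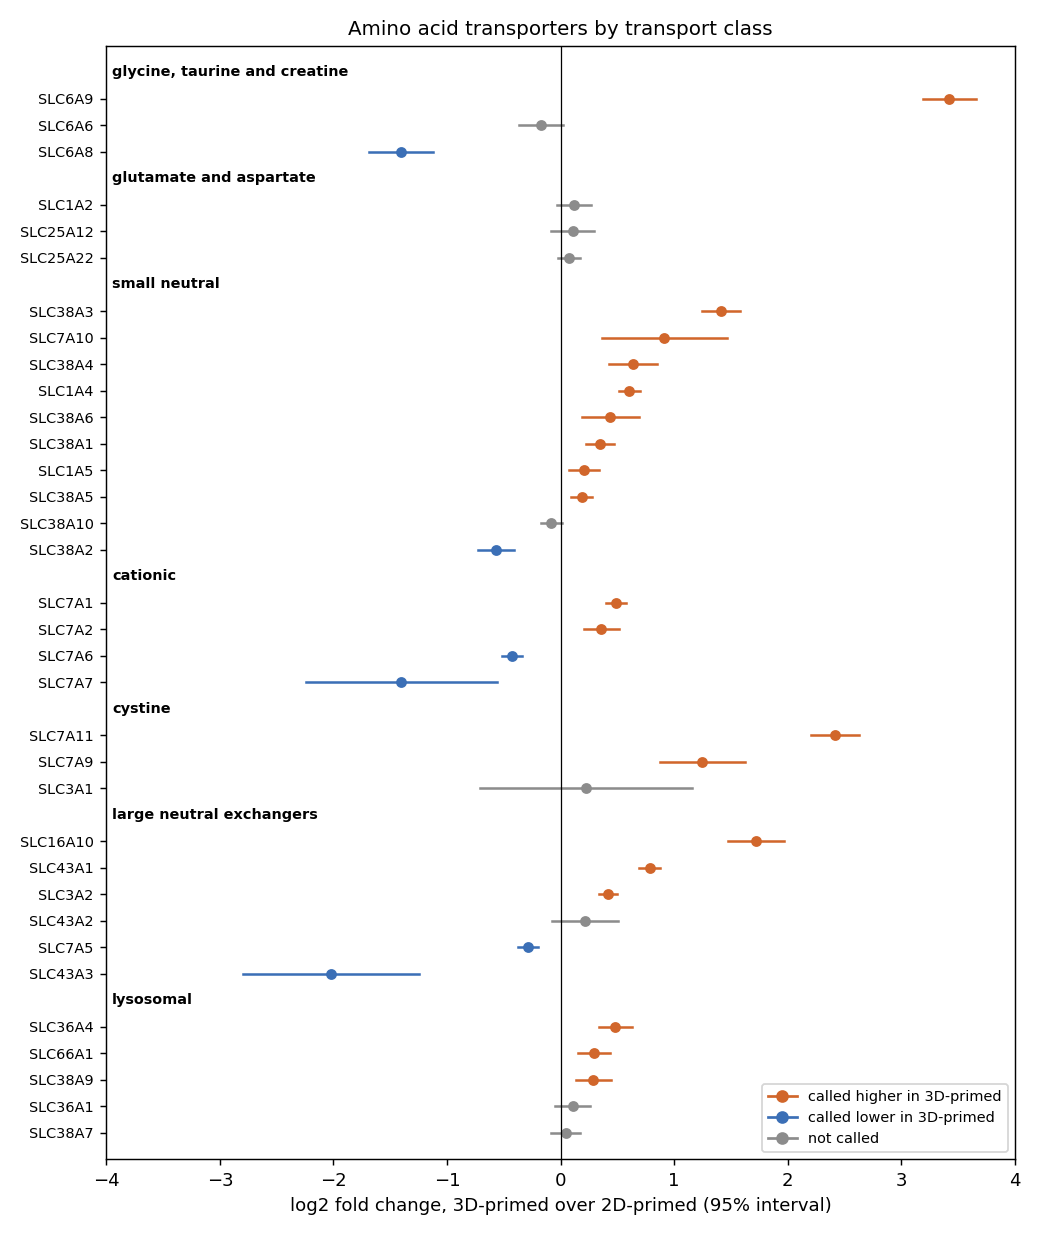
Log2 fold change (3D-primed over 2D-primed, n = 4 and 4) of the 34 transporters tested, grouped by transport class; points are edgeR estimates and lines their 95% intervals. SLC6A9 stands furthest to the right at 3.42, SLC43A3 furthest to the left at -2.02, and the 3 carriers of glutamate and aspartate lie near 0.

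Start regions were searched because many transporter genes are known targets of ATF4, the transcription factor of the amino acid response, which pairs with C/EBP proteins on a composite element. RefSeq windows of 250 bases before to 50 bases after the annotated start (GRCh38.p14) covered 30 of the 37 members. The motif TGATGNAA, read on both strands, lay in the windows of 5 of 16 members called higher, 0 of 5 called lower, 0 of 6 not called and 1 of 3 under the filter (SLC1A3). Counted by gene as for the members, 2.83% of all tested genes with a window held it, and 3.13% of those called higher and 2.85% of those called lower did. Of all 35116 windows, 3.62% held it. The sites in the 5 members called higher are shown with the match in capitals and up to 11 flanking bases on each side, written along the gene's strand 5′ to 3′. Where the capitals begin with TT, the match is on the opposite strand.
SLC1A4, chr2:64989381-64989410, plus strand: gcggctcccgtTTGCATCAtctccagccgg
SLC1A5, chr19:46784893-46784922, minus strand: gaggaagtggcTGATGCAAgctgtccaggg
SLC38A1, chr12:46266502-46266531, minus strand: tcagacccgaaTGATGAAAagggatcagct
SLC7A1, chr13:29595663-29595692, minus strand: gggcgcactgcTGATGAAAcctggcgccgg
SLC3A2, chr11:62881725-62881748, plus strand: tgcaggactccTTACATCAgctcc
Counting the annotated start base of the matching window as 0, the matches began at -7 in SLC1A4, -97 in SLC1A5, -4 in SLC38A1, 7 in SLC7A1 and 37 in SLC3A2. In SLC1A4, SLC1A5, SLC38A1 and SLC3A2 that start lies inside the span of the gene in GENCODE, not at its outer end. These are letters in a window and not shown to be bound. The core of the antioxidant response element, TGACNNNGC, lay in 4 of 16 members called higher, 3 of 5 called lower, 1 of 6 not called and 1 of 3 under the filter. By gene it lay in 19.4% of those tested, 19.2% of those called higher and 20.8% of those called lower, and in 13.3% of all windows. The E-box CACGTG lay in 3 of 16, 2 of 5, 3 of 6 and 1 of 3. By gene it lay in 12.4% of those tested, 12.1% of those called higher and 12.9% of those called lower, and in 7.26% of all windows. Several members have more than 1 window, which gives a motif more chances to occur. Not in the table were SLC1A2, SLC3A1, SLC6A6, SLC7A2, SLC7A11, SLC38A3 and SLC43A3.

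The class of glycine, taurine and creatine carriers held the largest rise and one of the largest falls. SLC6A9 (GLYT1; ENSG00000196517; chr1:43991500-44031467, minus strand, 14 exons), which takes up glycine with sodium and chloride, measured 4.21, 4.37, 3.34 and 3.67 CPM in the 2D-primed libraries. In the 3D-primed libraries it measured 40.1, 40.6, 38.1 and 48.5 CPM. The 2D-primed libraries were thus all below 5 CPM and the 3D-primed libraries all above 38, a 10.7-fold rise (log2 fold change 3.42, SE 0.10, edgeR adjusted p = 9.8e-09). CCDC24, which overlaps it on the other strand, moved the other way (log2 fold change -0.73). The 150 bases before its annotated start are shown as the start region of the member that rose most. No match to the 3 motifs was found in its windows.
SLC6A9, chr1:44031463-44031612, minus strand: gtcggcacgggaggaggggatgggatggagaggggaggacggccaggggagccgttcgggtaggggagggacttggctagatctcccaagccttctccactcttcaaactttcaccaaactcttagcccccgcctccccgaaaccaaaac

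SLC6A8 (CRTR; ENSG00000130821; chrX:153687926-153696588, plus strand, 13 exons) carries creatine, which the liver makes and exports and which other tissues use to buffer ATP. It measured 887, 1002, 951 and 957 CPM in the 2D-primed libraries and 349, 346, 463 and 278 CPM in the 3D-primed libraries. The lowest 2D-primed library stood far above the highest 3D-primed library, and the log2 fold change was -1.40 (SE 0.13, edgeR adjusted p = 5.1e-06). Its 3D-primed libraries were also the more scattered, with a coefficient of variation of 21.4% against 5.01%. Reads of SLC6A8 may be shared with the near-identical copy SLC6A10P, which was listed at 18 to 35 counts in the 2D-primed group and 5 to 17 in 3D-primed libraries, and PNCK overlaps it on the other strand (log2 fold change -0.88). The library kit keeps strand, but whether the counting used it is not given in the sources used here. SLC6A6, the taurine carrier, was at 30.6 ± 1.45 and 27.1 ± 3.51 CPM (SD, n = 4) and was not called (log2 fold change -0.17, edgeR adjusted p = 0.10). Without 3D-primed replicate 4 it was called, at -0.23 (edgeR adjusted p = 0.039).

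**Figure D2:**
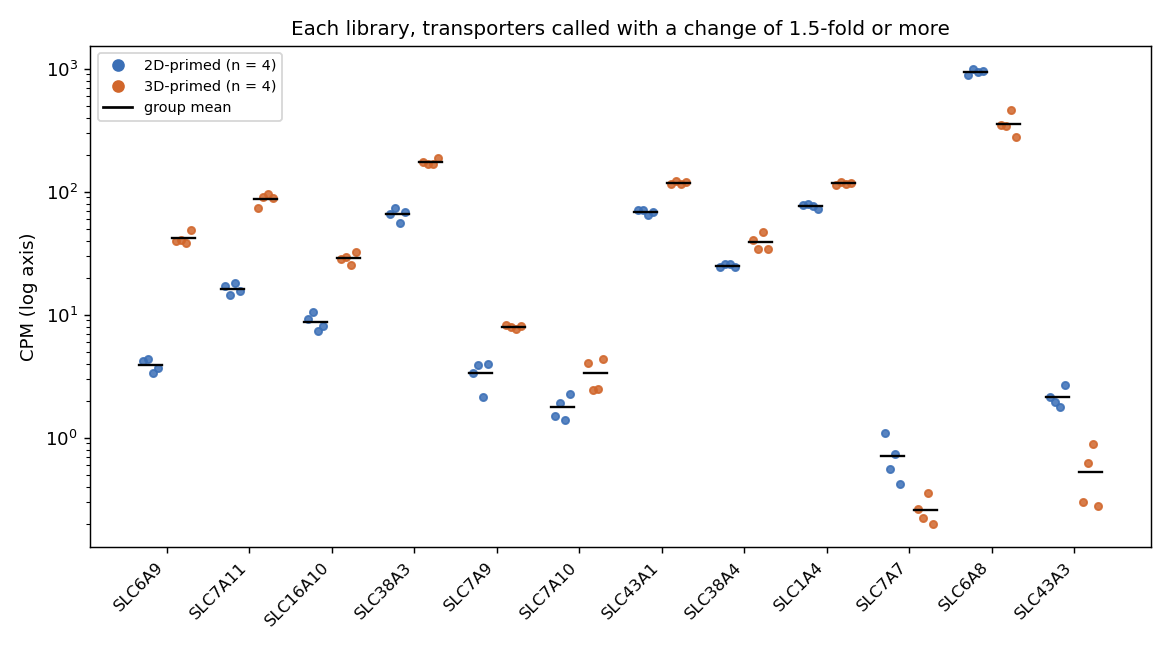
CPM on a log axis in each of the 8 libraries for the 12 transporters called with a change of 1.5-fold or more, ordered by fold change; black bars are group means (n = 4). In all 12 the 2D-primed and 3D-primed points do not overlap, and SLC7A7 and SLC43A3 sit at the bottom with few counts.

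None of the 3 measured carriers of glutamate and aspartate passed the test. SLC1A2 (EAAT2), a sodium-coupled glutamate carrier best known from astrocytes, was at 147 ± 9.75 CPM in 2D-primed cells and at 160 ± 13.7 CPM in 3D-primed cells (SD, n = 4), with a 95% interval of the log2 fold change from -0.03 to 0.27. The mitochondrial aspartate/glutamate carrier SLC25A12 was at 7.74 ± 0.60 and 8.34 ± 0.63 CPM, and the mitochondrial glutamate carrier SLC25A22 at 23.6 ± 0.68 and 24.9 ± 0.63 CPM (SD, n = 4). SLC25A12 overlaps the more abundant HAT1 on the other strand, which was called higher (log2 fold change 0.34). SLC1A2 and SLC25A22 were called higher when counts were corrected for GC content and length (log2 fold change 0.29 and 0.21) and with upper quartile scaling (0.17 and 0.13). The plasma membrane carriers SLC1A1 and SLC1A3 stayed under the filter, with at most 2 and 4 counts in a library.

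Of the 10 carriers of small neutral amino acids, 8 were called higher, 1 lower and 1 was not called, with a median log2 fold change of 0.39. The system N carrier SLC38A3 (SNAT3), which moves glutamine, histidine and asparagine and is typical of liver, measured 66.0, 73.3, 56.1 and 68.2 CPM in the 2D-primed libraries and 175, 170, 168 and 188 CPM in the 3D-primed libraries. Every 3D-primed library held more than the highest 2D-primed library, and the rise was 2.66-fold (log2 fold change 1.41, SE 0.08, edgeR adjusted p = 1.7e-07). SLC38A5 (SNAT5), the other system N carrier, rose far less, from 45.9 ± 0.70 to 52.2 ± 2.75 CPM (SD, n = 4).

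The system A carriers, which use sodium to take up alanine, serine and glutamine, moved in opposite directions. SLC38A2 (SNAT2; ENSG00000134294; chr12:46358188-46372773, minus strand, 16 exons), a carrier known to respond to amino acid supply, measured 1903, 2062, 2168 and 2108 CPM in the 2D-primed libraries. In the 3D-primed libraries it measured 1313, 1320, 1609 and 1314 CPM. It fell in all 3D-primed libraries (log2 fold change -0.57, SE 0.07, edgeR adjusted p = 5.3e-05), of which replicate 3 stood above the other three. SLC38A1 (SNAT1), which takes up glutamine, rose from 111 ± 4.36 to 141 ± 10.3 CPM (SD, n = 4). The liver carrier SLC38A4 (SNAT4) measured 24.2, 25.8, 25.7 and 24.6 CPM in 2D-primed libraries and 40.8, 34.4, 46.7 and 34.3 CPM in 3D-primed libraries, a log2 fold change of 0.64 (SE 0.09, edgeR adjusted p = 1.7e-04). SLC38A1, SLC38A2 and SLC38A4 are neighbours on chromosome 12 with 0 other protein-coding genes between them in GENCODE, and the middle gene fell while its flanking genes rose.

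The sodium-dependent exchanger SLC1A4 (ASCT1), which carries alanine, serine, cysteine and threonine, measured 78.8, 80.1, 76.6 and 71.9 CPM in 2D-primed libraries and 114, 120, 116 and 117 CPM in 3D-primed libraries. The groups lay well apart (log2 fold change 0.61, SE 0.04, edgeR adjusted p = 8.4e-07). Its relative SLC1A5 (ASCT2), a main route of glutamine uptake in proliferating cells, rose by less, from 292 ± 26.4 to 337 ± 9.75 CPM (SD, n = 4), a log2 fold change of 0.21. SLC7A10 (ASC1), a light chain that exchanges small neutral amino acids, was scarce at 1.51, 1.90, 1.38 and 2.28 CPM in 2D-primed libraries and 4.04, 2.44, 2.47 and 4.41 CPM in 3D-primed libraries. The nearest libraries of the groups differed little, and the log2 fold change was 0.91 (SE 0.25, edgeR adjusted p = 0.0079). It overlaps the far more abundant LRP3 on the other strand, which rose too (log2 fold change 0.59). SLC38A6, a member with little-known substrates, was called higher (log2 fold change 0.44), a call that ended under the correction for GC content and length (0.17, edgeR adjusted p = 0.22). On the other strand SLC38A6 overlaps the more abundant TRMT5, which was not called (log2 fold change 0.16). SLC38A10 was at 100.4 ± 4.31 and 94.9 ± 2.75 CPM (SD, n = 4) and was not called (-0.08), and the same correction turned its sign and called it higher (0.18, edgeR adjusted p = 0.0017).

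Of the 4 carriers of cationic amino acids, 2 were called higher and 2 lower. The uniporters SLC7A1 (CAT1) and SLC7A2 (CAT2), which bring in arginine, lysine and ornithine, rose from 114 ± 3.44 to 160 ± 5.84 CPM and from 254 ± 14.9 to 326 ± 30.8 CPM (SD, n = 4). Their log2 fold changes were 0.49 and 0.36 (edgeR adjusted p = 2.8e-06 and 9.9e-04). The exchangers SLC7A6 (y+LAT2) and SLC7A7 (y+LAT1), light chains that swap cationic for neutral amino acids, fell. SLC7A6 went from 71.8 ± 2.20 to 53.4 ± 2.11 CPM (SD, n = 4; log2 fold change -0.43, SE 0.04). SLC7A7 was close to the detection limit, with 24, 13, 18 and 10 counts in the 2D-primed and 7, 5, 10 and 5 in the 3D-primed libraries (log2 fold change -1.40, SE 0.38, edgeR adjusted p = 0.0078). It passed the filter in 4 of the 2D-primed and 1 of the 3D-primed libraries, so its direction was favoured by the filter.

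Among the cystine carriers, SLC7A11 (xCT; ENSG00000151012; chr4:138164097-138242349, minus strand, 12 exons) showed the second largest rise of all members. This light chain takes up cystine, a precursor of glutathione, in exchange for glutamate. It measured 17.0, 14.4, 18.1 and 15.7 CPM in the 2D-primed libraries and 73.4, 91.3, 95.6 and 88.7 CPM in the 3D-primed libraries. The groups were separated by a wide gap, a 5.35-fold rise (log2 fold change 2.42, SE 0.09, edgeR adjusted p = 3.5e-08). SLC7A9 (b0,+AT), the light chain of the cystine carrier of kidney and gut, measured 3.39, 3.93, 2.16 and 4.01 CPM in 2D-primed libraries and 8.30, 7.93, 7.67 and 8.14 CPM in 3D-primed libraries. It rose 2.38-fold (log2 fold change 1.25, SE 0.17, edgeR adjusted p = 8.6e-05). SLC3A1 (rBAT), the heavy chain that SLC7A9 needs, had 5 to 14 counts per library and was not called (log2 fold change 0.22, 95% interval -0.71 to 1.15), so a change of moderate size was not detectable at this depth. It overlaps the far more abundant PREPL on the other strand, at 634 to 1540 counts per library, which rose (log2 fold change 0.95).

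The class of large neutral exchangers held SLC3A2 and the leucine carrier SLC7A5, whose RNA moved in opposite directions. SLC3A2 (CD98hc; ENSG00000168003; chr11:62856004-62888880, plus strand, 9 exons) measured 168, 171, 177 and 168 CPM in the 2D-primed and 231, 228, 226 and 229 CPM in the 3D-primed libraries. This heavy chain had the tightest 3D-primed libraries of all members tested, with a coefficient of variation of 0.885%, and a log2 fold change of 0.42 (SE 0.03, edgeR adjusted p = 2.4e-06). SLC7A5 (LAT1; ENSG00000103257; chr16:87830023-87869507, minus strand, 10 exons), the light chain that brings in leucine and other large neutral amino acids, measured 685, 728, 662 and 673 CPM in the 2D-primed libraries and 558, 556, 557 and 585 CPM in the 3D-primed libraries. Its 3D-primed libraries were all lower (log2 fold change -0.29, SE 0.04, edgeR adjusted p = 1.3e-04), but with counts corrected for GC content and length the log2 fold change was -0.04 and the call was lost (edgeR adjusted p = 0.37). Its near-identical copies SLC7A5P2 and SLC7A5P1 were listed at 8 to 45 and 0 to 2 counts per library.

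Other carriers of this class do not need a heavy chain. SLC16A10 (TAT1), which lets aromatic amino acids pass, measured 9.16, 10.5, 7.41 and 8.10 CPM in 2D-primed libraries and 28.2, 29.6, 25.5 and 32.6 CPM in 3D-primed libraries. The highest 2D-primed library was below the lowest 3D-primed library by more than the range of either group (log2 fold change 1.72, SE 0.11, edgeR adjusted p = 5.2e-07). SLC43A1 (LAT3), a facilitated carrier of branched-chain and other large neutral amino acids, measured 70.6, 70.7, 64.7 and 68.6 CPM in 2D-primed libraries and 116, 122, 115 and 121 CPM in 3D-primed libraries. It rose 1.72-fold (log2 fold change 0.79, SE 0.04, edgeR adjusted p = 1.6e-07). SLC43A2 (LAT4) was at 20.7 ± 0.52 and 24.1 ± 5.04 CPM (SD, n = 4) and was not called (log2 fold change 0.22, edgeR adjusted p = 0.17). Its 3D-primed replicate 4, at 17.1 CPM, lay under all 2D-primed libraries while the other three lay above them, and without it SLC43A2 was called higher (0.35, edgeR adjusted p = 0.0014). The correction for GC content and length also called it higher (0.55).

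SLC43A3, a family member known for carrying nucleobases rather than amino acids, had the largest fall of the members on few counts. It had 47, 45, 44 and 64 counts in the 2D-primed and 8, 14, 25 and 7 in the 3D-primed libraries (log2 fold change -2.02, SE 0.35, edgeR adjusted p = 5.0e-04). SLC43A3 and SLC43A1 lie 57.0 kb apart on chromosome 11 and changed in opposite directions. SLC7A8 (LAT2) stayed under the filter, with 0 to 3 counts in the 2D-primed group and 0 in all 3D-primed libraries.

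Of the 5 lysosomal carriers, 3 were called higher and none lower, all by less than 1.5-fold. SLC36A4 (PAT4) rose from 10.8 ± 0.71 to 15.1 ± 0.72 CPM (SD, n = 4; log2 fold change 0.48). SLC66A1 (PQLC2), which exports cationic amino acids from the lysosome, rose from 19.4 ± 1.19 to 23.8 ± 1.53 CPM (log2 fold change 0.30). The arginine sensor SLC38A9 (SNAT9) measured 16.7, 17.2, 17.5 and 15.4 CPM in 2D-primed libraries and 19.7, 22.8, 19.9 and 19.3 CPM in 3D-primed libraries. It was called higher (log2 fold change 0.29, edgeR adjusted p = 0.0038), a call that ended under the correction for GC content and length (0.11, edgeR adjusted p = 0.18). SLC36A1 (PAT1) and SLC38A7 (SNAT7), which export small neutral amino acids and glutamine from the lysosome, were not called (log2 fold change 0.11 and 0.04), and under the same correction were called higher (0.25 and 0.20).

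Levels of different genes were compared as CPM per kb of the Ensembl canonical transcript, and these comparisons of level carry no test. In 2D-primed cells the order was led by SLC38A2 at 430 ± 23.7, SLC6A8 at 241 ± 12.1, SLC7A5 at 151 ± 6.35, SLC1A5 at 101 ± 9.15 and SLC3A2 at 90.8 ± 2.32 CPM per kb (SD, n = 4), of which SLC1A5 and SLC3A2 differed by little more than their spread. In 3D-primed cells SLC38A2 still led at 290 ± 30.5 CPM per kb. It was followed by SLC7A5 at 124 ± 3.07, SLC3A2 at 121 ± 1.07 and SLC1A5 at 117 ± 3.38 CPM per kb, which lay within about 2 SD of each other, and by SLC6A8 at 91.3 ± 19.5. SLC38A3 moved from rank 10 to rank 6, SLC7A11 from rank 28 to rank 19 and SLC6A9 from rank 29 to rank 15 of the 37. The same 5 genes led in both groups, although with the median transcript length of each gene 3 of these 5 remained among the 5 highest by the mean of both groups.

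**Figure D3:**
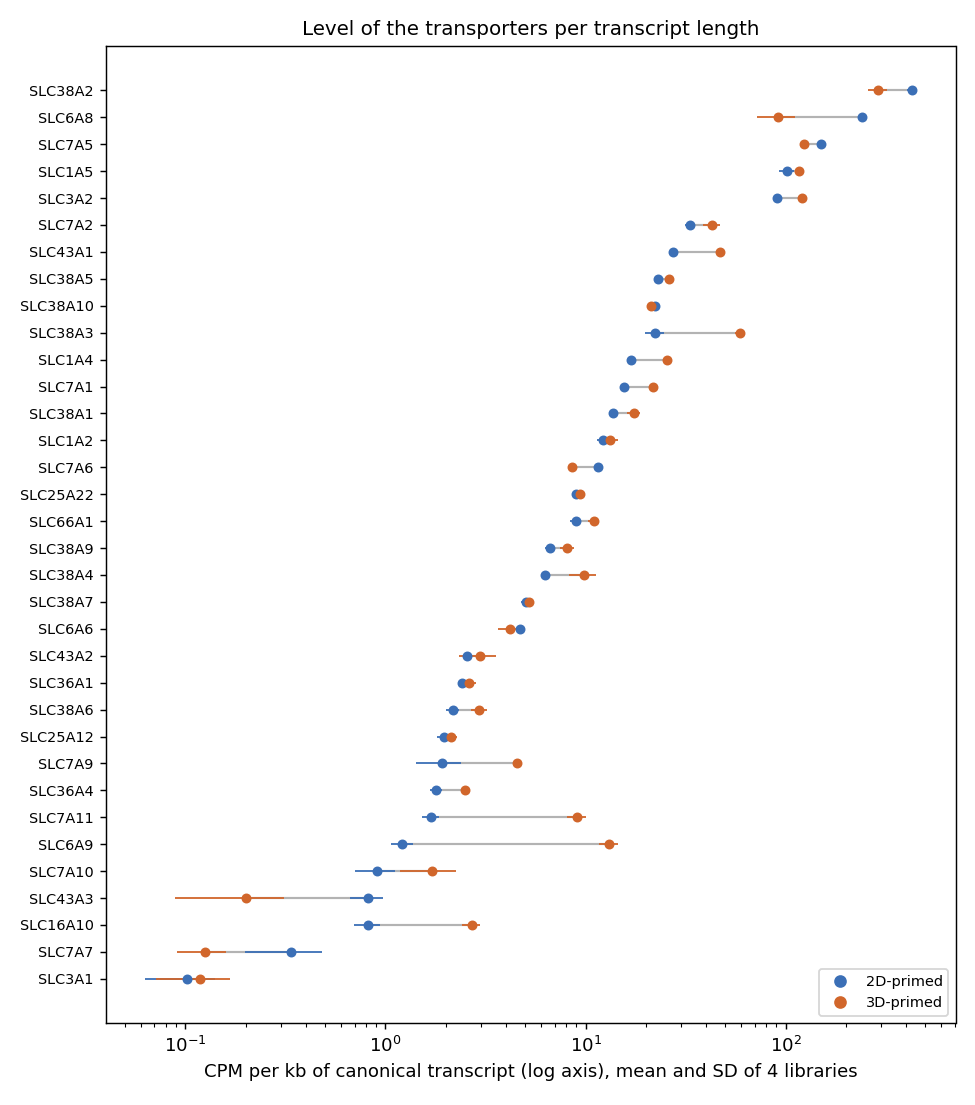
CPM per kb of canonical transcript on a log axis for the 34 transporters tested, ordered by the 2D-primed mean; points are means and coloured lines the SD of 4 libraries, and grey lines join the groups. SLC38A2 leads in both groups, at 430 and 290 CPM per kb, and the longest grey line belongs to SLC6A9.

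SLC38A2, SLC6A8 and SLC7A5 were summed because they led in 2D-primed cells, a choice that favours a lower share in the other group. They made up 64.6 ± 0.44% of the summed CPM per kb of the 37 members in the 2D-primed group and 45.1 ± 2.17% in 3D-primed cells (SD, n = 4). SLC38A2 alone went from 33.8 ± 1.01% to 25.8 ± 1.49% and SLC6A8 from 19.0 ± 0.41% to 8.13 ± 1.39%, while SLC7A5 was at 11.9 ± 0.58% and 11.1 ± 0.62% with overlapping groups. The summed level itself was 1272 ± 45.1 CPM per kb in the 2D-primed group and 1118 ± 50.7 in 3D-primed cells, and the groups did not overlap.

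Ratios within a library set partners, or carriers of the same family, beside each other. SLC7A5 per kb over SLC3A2 per kb was 1.69, 1.76, 1.55 and 1.66 in the 2D-primed libraries and 0.999, 1.01, 1.02 and 1.05 in the 3D-primed libraries. The leucine light chain thus exceeded the heavy chain in all 2D-primed libraries and was near parity in the 3D-primed ones, on this length scale. SLC7A11 per kb over SLC3A2 per kb was 0.0186 ± 0.0017 and 0.0747 ± 0.0088 (SD, n = 4). Of the summed level of 6 light chains that bind SLC3A2, SLC7A11 made up 1.03 ± 0.13% in the 2D-primed group and 6.32 ± 0.68% in 3D-primed cells, and SLC7A5 91.3 ± 0.48% and 86.4 ± 0.59%. SLC38A2 per kb over SLC38A1 per kb was 31.5 ± 2.16 and 16.7 ± 1.28, and SLC6A8 per kb over SLC6A9 per kb 201 ± 26.9 and 7.16 ± 2.15 (SD, n = 4). The ranges of the groups did not overlap in any of these ratios. For SLC7A5 over SLC3A2, SLC38A2 over SLC38A1 and SLC6A8 over SLC6A9 this follows from the members themselves. The first of each pair was lower and the second higher in every 3D-primed library, so these ratios add no separate result. SLC7A2 per kb over SLC7A1 per kb overlapped, at 1.94 to 2.26 in 2D-primed and 1.78 to 2.13 in 3D-primed libraries. A different transcript length rescales a ratio in all libraries alike.

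**Figure D4:**
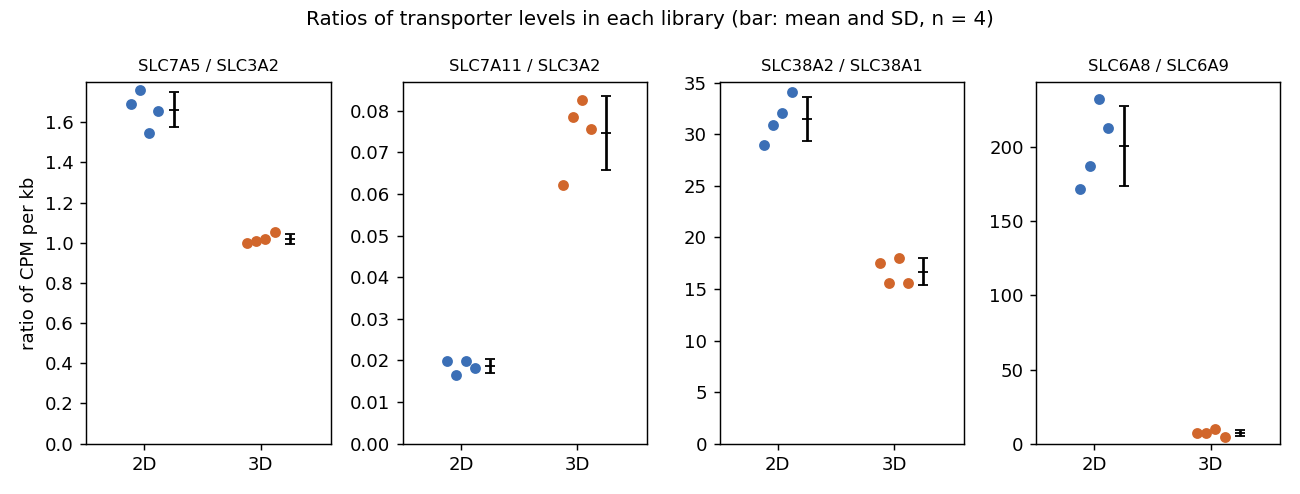
Ratios of CPM per kb in each library (points) with the mean and SD of 4 libraries (black bars), on linear axes from 0. SLC7A5 over SLC3A2 falls to about 1.02 in 3D-primed libraries, SLC7A11 over SLC3A2 is higher in all of them, and SLC38A2 over SLC38A1 and SLC6A8 over SLC6A9 are lower in all of them.

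Other genes of amino acid supply were taken from lists drawn up by pathway, whose shares stand beside 32.4% higher and 31.6% lower over all genes tested. Of 40 other amino acid transporters 19 passed the filter, with 10 called higher (52.6%), 3 lower (15.8%) and a median log2 fold change of 0.31. Those with the smallest p were the mitochondrial aspartate/glutamate carrier SLC25A13 (0.60), which in liver outweighs its relative SLC25A12, the lysosomal cystine exporter CTNS (0.93) and SLC38A11 (0.82). SLC25A13 rose from 58.9 ± 1.66 to 89.5 ± 2.86 CPM and CTNS from 9.13 ± 0.78 to 17.4 ± 0.18 CPM (SD, n = 4).

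Of the 29 genes of the amino acid response, 28 were tested and all 28 were called, 19 higher (67.9%) and 9 lower (32.1%), with a median of 0.84. Asparagine synthetase (ASNS) rose from 14.1 ± 0.37 to 132 ± 6.33 CPM (log2 fold change 3.22), the serine synthesis enzyme PSAT1 from 76.3 ± 5.73 to 393 ± 17.2 CPM (2.37) and the mitochondrial folate enzyme MTHFD2 from 95.6 ± 3.70 to 281 ± 4.94 CPM (1.56). ATF4 itself rose (0.98), while ATF3 (-1.51) and PPP1R15A (-1.80), which are induced by several kinds of stress, fell; these 3 were chosen after their values were seen. Of 39 genes of amino acid sensing by mTORC1, 13 were called higher (33.3%) and 15 lower (38.5%), with a median of -0.0039, shares near those over all genes. CASTOR2 (-1.44) and the GTPase RRAGA (-0.50) fell, and the mTORC1 inhibitor AKT1S1 rose (0.75). CASTOR1, at a log2 fold change of 0.32, was not called.

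Of 15 genes that make glutathione or use cystine, 7 were called higher (46.7%) and 5 lower (33.3%), with a median of 0.14. The transsulphuration enzymes CBS (1.52) and CTH (1.25), which make cysteine from homocysteine, rose, and the glutathione peroxidase GPX4 fell (-0.69). Of 9 enzymes of glutamine and glutamate, 5 were called higher (55.6%) and 2 lower (22.2%), with a median of 0.37 and with ASNS and the aspartate aminotransferase GOT1 (0.58) among those with the smallest p. The values in parentheses after single genes are log2 fold changes with an edgeR adjusted p below 0.05. ASNS stands in 2 of these lists and CTH in 2.

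**Figure D5:**
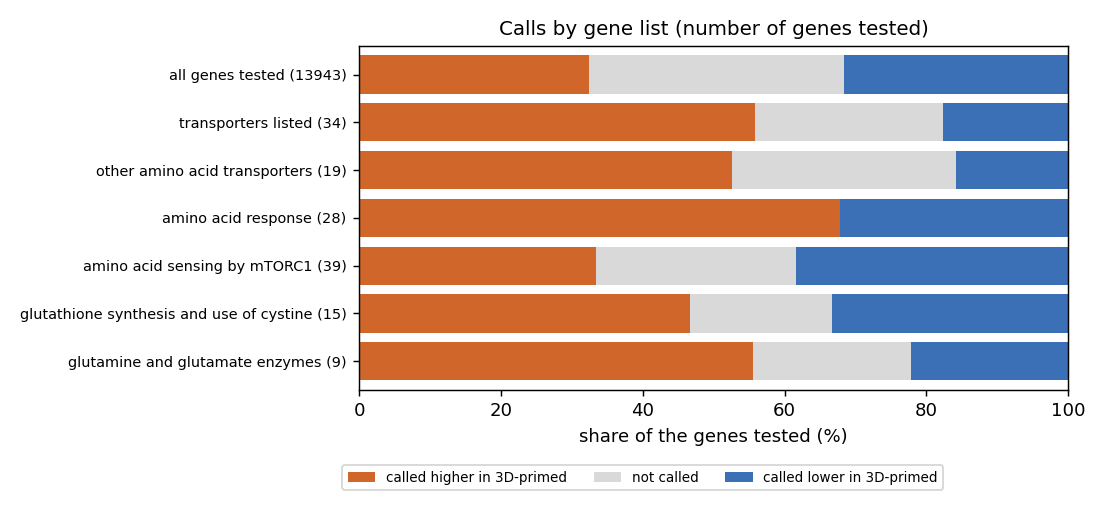
Share of the tested genes called higher, not called and called lower in 3D-primed cells, for all 13943 genes, the 34 transporters and the 5 other gene lists (number tested in brackets). The transporters show 55.9% higher and 17.6% lower against 32.4% and 31.6% over all genes.

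The libraries of each group were close to each other for the transporters. The coefficient of variation over 4 libraries had a median of 5.75% in the 2D-primed group and 7.75% in 3D-primed cells. Among 3D-primed libraries, replicate 3 held the highest value for 15 of the 34 members and replicate 4 for 11, and among 2D-primed libraries replicate 2 did for 15. Replicate 3 stood highest in SLC38A2 and SLC6A8, and replicate 4 in SLC6A9, SLC38A3 and SLC16A10.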

How the data were processed

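Polyadenylated RNA of 8 HepG2 libraries was sequenced. The authors deposited estimated counts per gene, made with Salmon 0.14.1 on the Ensembl release 98 cDNA of GRCh38 and tximport 1.12.3. These are whole numbers, not scaled for depth, and the tximport setting for transcript length is not given in the sources used here. The design assumed counts, and the estimated counts were used as they are. Symbols, positions and lengths came from GENCODE 44 (GRCh38), which matched 92.0% of the identifiers, holding 97.5% of all counts. No column was left without a sample.

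Genes with 10 or more counts in 2 or more libraries were tested in edgeR 4.0.16 (R 4.3.3) with TMM, glmQLFit and glmQLFTest, without covariates, with Benjamini-Hochberg adjustment over 13943 genes. The SE is the size of the log2 fold change over the square root of F. Intervals are 95% intervals of the fit. The members, classes and lists were chosen with earlier results of these data known, and no class or list was tested as a set. All members are accounted for, those called with 1.5-fold or more by library, and of each list the 3 genes with the smallest p are named, except that 1 gene is not reported here. Sequences came from RefSeq. Libraries of a group differed beyond counting error (chi-square per degree of freedom 6.32 to 17.4).

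Tested on simulated data for this comparison (13943 genes, 200 changed), edgeR called 95.0% of the genes changed 1.5-fold and 100% of those changed 2-fold, and 3.47% of its calls were unchanged genes. The changed genes were drawn only from those above a low CPM limit, and all genes shared a common dispersion. In the data themselves 8916 genes were called, so these rates need not hold there or for members with few counts. The 18 alternatives comprised DESeq2 1.42.0, limma-voom (limma 3.58.1), other scalings and filters, GC and length offsets (13293 genes had both values), the replicate block and leaving out each library.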

Additional observations from a re-analysis of the deposited data

Results flagged for a closer look

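The highest and lowest library of each group of 4 was compared with its neighbours for the 34 transporters, and 3 of 68 groups held a library far from the other three, where chance alone marks about 1 group in 20. SLC38A2 was at 1609 CPM in 3D-primed replicate 3, against 1313 to 1320 CPM in the others. SLC7A5 was at 585 CPM in 3D-primed replicate 4, against 556 to 558 CPM. SLC38A9 was at 22.8 CPM in 3D-primed replicate 2, against 19.3 to 19.9 CPM. All 3 lay in 3D-primed libraries, each in a different one.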

How the results depend on the processing

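Over the 18 other fits, 19 to 23 transporters were called higher and 4 to 7 lower, 8 or 9 higher and 1 to 4 lower by 1.5-fold or more, and 8357 to 9070 genes in all (8413 with DESeq2). With 10 counts required in all 8 libraries, the transporters called lower by 1.5-fold or more numbered 1, because SLC7A7 and SLC43A3 were then not tested. With the median transcript length, 3 of the 5 leaders by canonical length remained among the 5 highest by CPM per kb over both groups. The offsets for GC content and length turned SLC38A10 to 0.18, ended the calls of SLC7A5, SLC38A6 and SLC38A9 and added 5 others, and the cause was not tested. Leaving out each library gave -0.018 to 0.48 for SLC3A1, with the sign turned without 3D-primed replicate 3. With the replicate number as a block (replicate block), 19 transporters were called higher and 6 lower, and 8490 genes in all; it changed no transporter's call. The labels do not say whether the numbers pair the samples. Same-numbered deviations correlated at -0.04, -0.01, 0.06 and 0.01, which shows no shared deviation but cannot settle how the cultures were set up. Of 34 transporters, all kept their direction and call under DESeq2 and limma-voom. Low counts limit SLC3A1, SLC7A7 and SLC43A3.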
